A study of Mus musculus with 25 samples.

Results

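The comparison set livers of SIRT1 LKO mice against livers of wild-type mice when both had received an AAV8 vector for NAMPT and a Western diet for 12 weeks. It held 11 of the 25 liver libraries of the series, 5 labelled SIRT1 LKO (LKO NAMPT) and 6 labelled wild type (WT NAMPT), and every gene with more than 1 CPM (counts scaled to a fixed library total) in at least 2 libraries, which gave 14065 genes. All animals were male C57B/6J mice aged 20 weeks, and each library came from 1 liver. The LKO mice carried a floxed Sirt1 gene and the Albumin-cre transgene, which is active in liver parenchyma, and the wild-type mice were littermates with the floxed gene and no Cre, so both groups carried the floxed allele. The AAV8 vector drove NAMPT from the TBG promoter, which is active in hepatocytes. The same genotypes under empty vector (EV) and Western diet, 6 WT EV and 5 LKO EV libraries, are shown beside them and share no library with them, and 3 chow-fed WT EV libraries entered the fit without being compared. The labels' treatment text names the insert as SIRT1 where the titles name NAMPT, and the titles were followed. Nothing in the labels ties a library to a sequencing run, a cage or a time of day. Libraries held 20166175 to 32937326 gene counts.

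NAMPT makes nicotinamide mononucleotide, the precursor from which cells rebuild NAD. SIRT1 removes acetyl groups from histones and transcription factors and consumes NAD as it does so. In the liver its known partners include PPARα and NF-kB, the driver of inflammatory genes. PPARα is the fatty acid receptor that switches on fatty acid oxidation, ketogenesis and several Cyp4a omega-hydroxylases. The comparison asks which liver transcripts under the NAMPT vector differ between mice labelled SIRT1 LKO and wild type. In whole liver RNA, fewer cells of a type and less RNA per cell cannot be told apart.

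The targeted gene was examined first. Sirt1 (ENSMUSG00000020063) was at 8.97, 8.701, 7.62, 8.11, 8.76 and 9.32 CPM in WT NAMPT libraries 1 to 6 and at 8.69, 8.09, 10.99, 10.3 and 11.1 CPM in LKO NAMPT libraries 1 to 5. The groups overlapped, and the level was not lower in LKO NAMPT (log2 fold change 0.19 ± 0.10 (SE), adjusted p = 0.237 by limma, and difference of mean log2 CPM 0.18 with p = 0.104 by an exact two-sided permutation test). Without LKO NAMPT 2 the difference was 0.24, higher in LKO, with an exact permutation p of 0.0476. A count over the whole gene cannot show the loss of a floxed exon from a transcript that is still made, and the counts here are not split by exon, so LKO below means the libraries labelled SIRT1 LKO. Nampt, the gene the vector supplies, was at 62.9, 46.8, 77.8, 52.2, 57.6 and 59.9 CPM in WT NAMPT and 73.6, 83.5, 127, 62.1 and 53.9 CPM in LKO NAMPT, against 38.3 to 54.1 (median 49.2) in WT EV and 46.00 to 75.6 (median 55.7) in LKO EV. Nampt overlapped between the genotypes (log2 fold change 0.26 ± 0.17 (SE), adjusted p = 0.306, and exact permutation p = 0.13). In each genotype the NAMPT libraries also overlapped the EV libraries, so NAMPT below means the libraries with that label. Fgf21, a fasting hormone made by the liver and a PPARα target, was at 18.4, 26.9, 11.1, 7.95, 6.56 and 1.401 CPM in WT NAMPT and 4.33, 7.596, 6.02, 6.43 and 8.24 CPM in LKO NAMPT. Its groups overlapped (log2 fold change -0.46 ± 0.46 (SE), adjusted p = 0.528). The exact permutation test of Fgf21 gave a difference of -0.45 with p = 0.498, and without WT NAMPT 6, the lowest library, -0.91 with p = 0.0476. Over the 3 permutation tests the adjusted p was 0.195 for Sirt1, 0.195 for Nampt and 0.498 for Fgf21, and the smallest p that 5 against 6 libraries can give is 0.00433. The permutation p-values of 0.0476 for Sirt1 and Fgf21 came from runs that left out each of the 11 libraries in turn. They were not adjusted for those runs, so they are no finding.

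Of the genes tested, 1120 (7.96%) differed between LKO NAMPT and WT NAMPT at an adjusted p of at most 0.05 (limma), 588 (4.18%) higher and 532 (3.78%) lower in LKO. The libraries of the groups did not overlap at all in 111 genes that were higher (0.789%) and 85 that were lower (0.604%), and 105 genes were both called and free of overlap. Across all genes the median log2 fold change was -0.005, and across the called genes the median size was 0.58. The called genes included 10 with a log2 fold change over 2 in the upward and 22 in the downward direction. The plot of fold change against abundance places the genes that carried the largest separated differences.

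**Figure D1:**
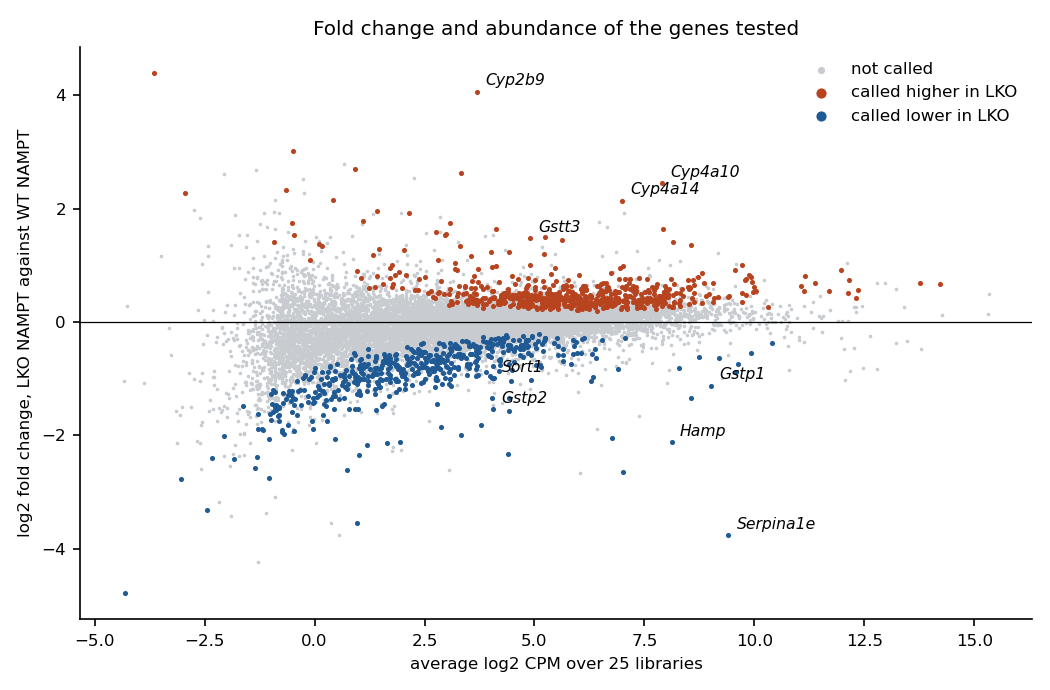
Log2 fold change of LKO NAMPT against WT NAMPT (vertical axis) against the average log2 CPM over all libraries (horizontal axis), 1 point per gene tested, with called genes coloured by direction. Cyp4a10, Cyp4a14 and Cyp2b9 stand out above at 2.45, 2.14 and 4.07, and Serpina1e below at -3.76.

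Both groups held a library close to the other group. In 872 of the 1120 called genes WT NAMPT 6 was the WT library nearest to the LKO level, and in 792 LKO NAMPT 1 was the LKO library nearest to the WT level. The count of called genes turned on single libraries. Leaving out LKO NAMPT 2 gave 0 called genes by limma, with 2287 at an unadjusted p under 0.05, and leaving out LKO NAMPT 5 gave 2, which were Cyp4a10 and Gstt3. Without WT NAMPT 3, WT NAMPT 2 or LKO NAMPT 3 it was 78, 150 or 200, and without WT NAMPT 1 or WT NAMPT 4 it was 639 or 653. Leaving out WT NAMPT 6, LKO NAMPT 1, WT NAMPT 5 or LKO NAMPT 4 raised it to 2287, 2258, 1956 or 1817. All 1120 kept their direction in each of these 11 fits, which their selection from the same libraries made likely. The edgeR quasi-likelihood test called 45 genes, DESeq2 294 and limma on only the 11 libraries compared 12 (0.0853%). A total of 7 genes were called under each of the 13 alternatives that changed the test, filter, size factors, covariates or set of libraries other than by leaving out 1 library (a fit on fewer libraries included). They were Cyp4a10, Gstt3 and Gypc, higher in LKO, and Serpina1e, Gstp1, Gstp2 and Sort1, lower in LKO. Each of the 7 was called in 9 or 10 of the 11 leave-one-out fits.

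**Figure D2:**
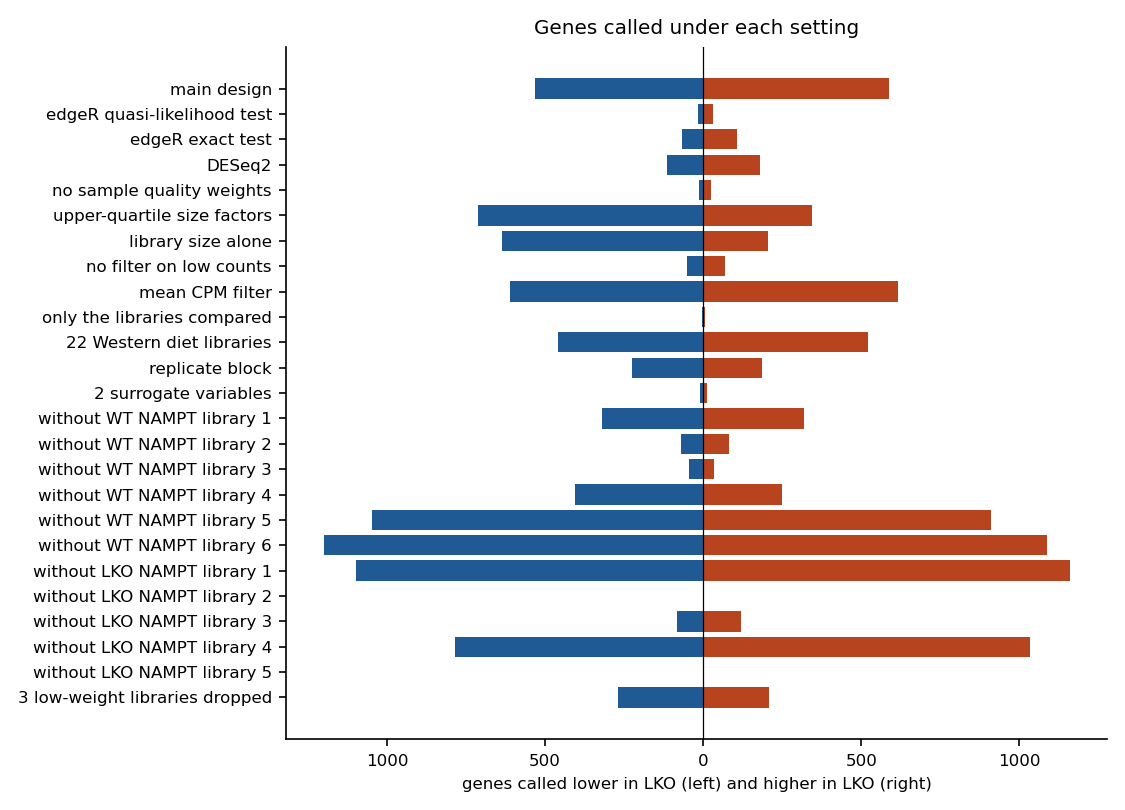
Number of genes called higher (right) and lower (left) in LKO NAMPT than in WT NAMPT under each setting, from 588 and 532 in the fit reported here to 0 without LKO NAMPT 2. The counts ranged up to 2287 without WT NAMPT 6.

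No promoter of Cyp4a10, Cyp4a14 or Sort1 was in the source used. The promoters of 6 called genes, of which all but Acot1 were separated between the groups, are shown here, including those of the paralogues Gstp1 and Gstp2. Each is the 250 bases before the RefSeq transcription start (GRCm38.p6), 5′ to 3′ on the gene's strand, with any match to 1 of 3 motifs in capitals. The motifs searched on both strands were the nuclear receptor half-site AGGTCA, on which PPARα and CAR dimers are built, the AP-1 element TGAGTCA and the HNF1 half-site GTTAAT. The windows were chr4:115600688-115600937 (plus strand) for Cyp4a32, chr12:84009252-84009501 (plus) for Acot1, chr7:26173159-26173408 (plus) for Cyp2b9, chr19:4037913-4038162 (minus) for Gstp1, chr19:4042222-4042471 (minus) for Gstp2 and chr12:103956898-103957147 (minus) for Serpina1e.
Cyp4a32: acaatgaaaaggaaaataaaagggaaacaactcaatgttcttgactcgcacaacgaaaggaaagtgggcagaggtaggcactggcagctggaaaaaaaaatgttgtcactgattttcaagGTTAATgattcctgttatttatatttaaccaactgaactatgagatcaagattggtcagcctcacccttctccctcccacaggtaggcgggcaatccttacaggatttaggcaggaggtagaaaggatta
Acot1: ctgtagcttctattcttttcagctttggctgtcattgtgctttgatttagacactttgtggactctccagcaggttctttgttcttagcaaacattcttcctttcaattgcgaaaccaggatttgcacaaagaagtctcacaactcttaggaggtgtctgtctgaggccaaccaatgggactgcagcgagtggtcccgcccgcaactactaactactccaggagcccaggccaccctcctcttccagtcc
Cyp2b9: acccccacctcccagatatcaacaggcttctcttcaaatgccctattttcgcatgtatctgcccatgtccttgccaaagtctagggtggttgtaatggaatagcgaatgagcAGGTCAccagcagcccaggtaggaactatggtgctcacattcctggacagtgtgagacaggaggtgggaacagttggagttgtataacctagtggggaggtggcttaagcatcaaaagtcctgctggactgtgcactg
Gstp1: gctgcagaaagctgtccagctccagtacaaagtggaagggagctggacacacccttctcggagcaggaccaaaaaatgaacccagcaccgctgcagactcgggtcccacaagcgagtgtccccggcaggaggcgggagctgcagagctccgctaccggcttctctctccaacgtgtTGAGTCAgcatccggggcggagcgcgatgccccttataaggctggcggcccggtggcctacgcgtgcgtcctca
Gstp2: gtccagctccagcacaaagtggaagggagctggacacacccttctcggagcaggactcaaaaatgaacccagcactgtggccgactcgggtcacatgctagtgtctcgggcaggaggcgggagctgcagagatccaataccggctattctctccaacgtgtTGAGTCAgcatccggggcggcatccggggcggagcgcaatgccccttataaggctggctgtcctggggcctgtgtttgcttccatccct
Serpina1e: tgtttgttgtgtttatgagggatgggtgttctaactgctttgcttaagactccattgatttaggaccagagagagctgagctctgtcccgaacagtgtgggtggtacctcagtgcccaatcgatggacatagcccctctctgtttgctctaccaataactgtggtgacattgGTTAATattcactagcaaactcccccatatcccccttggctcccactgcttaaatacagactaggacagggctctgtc

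The Cyp2b9 window held AGGTCA 138 bases before the start, the Gstp1 and Gstp2 windows TGAGTCA at 74 and 89 bases, and the Cyp4a32 and Serpina1e windows GTTAAT at 130 and 78 bases. The Acot1 window held none of the 3. Gstp1 and Gstp2 shared a longest run of 43 bases, and 44 of 231 windows of 20 bases in one were found in the other. Over all RefSeq promoters of this length, 14.02% held the nuclear receptor half-site, 4.46% the AP-1 element and 6.43% the HNF1 half-site on either strand. The nuclear receptor half-site was in 11.8% of the promoters of genes called higher and 10.4% of those called lower, against 11.5% of those of all genes tested. The AP-1 element was in 3.41%, 4.0% and 3.46% of the same sets, and the HNF1 half-site in 5.57%, 2.8% and 4.49%, that is in 31 of 557 promoters of genes called higher and 14 of 500 of genes called lower. These shares were not tested. These are letter matches, not sites of binding.

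The Cyp4a omega-hydroxylases, which oxidise the far end of fatty acids and include textbook PPARα targets, were called in part, and the calls were in the upward direction. Of the 6 members 3 were called higher and 0 lower, beside 4.18% of all genes called higher, with a median log2 fold change of 0.96, against -0.39 for LKO EV compared with WT EV. Cyp4a10 (ENSMUSG00000066072, chr4:115518264-115533649, plus strand, GRCm38) was at 51.8, 27.3, 87.9, 131, 119 and 179 CPM in WT NAMPT 1 to 6. In LKO NAMPT 1 to 5 it was at 308, 575, 571, 542 and 577 CPM. All LKO NAMPT libraries lay above every WT NAMPT library, with LKO NAMPT 1 the lowest of them, a 5.45-fold difference (log2 fold change 2.45 ± 0.36 (SE), adjusted p = 0.00325). WT NAMPT had the lowest median of the 4 Western diet groups, since Cyp4a10 was at 229 to 614 (median 307) CPM in WT EV and 170.1 to 521 (median 348) CPM in LKO EV, where the genotypes gave a log2 fold change of -0.19. The interaction of genotype and vector did not pass the threshold for Cyp4a10 (adjusted p = 0.0564). Cyp4a14 was at 44.1, 33.9, 70.7, 95.5, 33.1 and 35.5 CPM in WT NAMPT and 335, 231, 709, 284 and 199.7 CPM in LKO NAMPT, again with no overlap (log2 fold change 2.14 ± 0.60 (SE), adjusted p = 0.0336), and spread over 43.7 to 341 (median 238) CPM in WT EV. It was called in 5 of the 11 leave-one-out fits. Cyp4a32 was at 11.8, 7.92, 8.69, 9.63, 9.396 and 15.4 CPM and 17.8, 19.7, 24.9, 19.9 and 16.05 CPM, separated by a small margin (log2 fold change 0.99 ± 0.24 (SE), adjusted p = 0.0225). The count of 3 was 0 without LKO NAMPT 2 and 1 without WT NAMPT 2, WT NAMPT 3 or LKO NAMPT 5. Cyp4a10 shared 29.8% and Cyp4a32 43.8% of their 50-base exon windows with another gene, mostly each other, so reads could be split between them, while Cyp4a14 shared 0.235%.

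**Figure D3:**
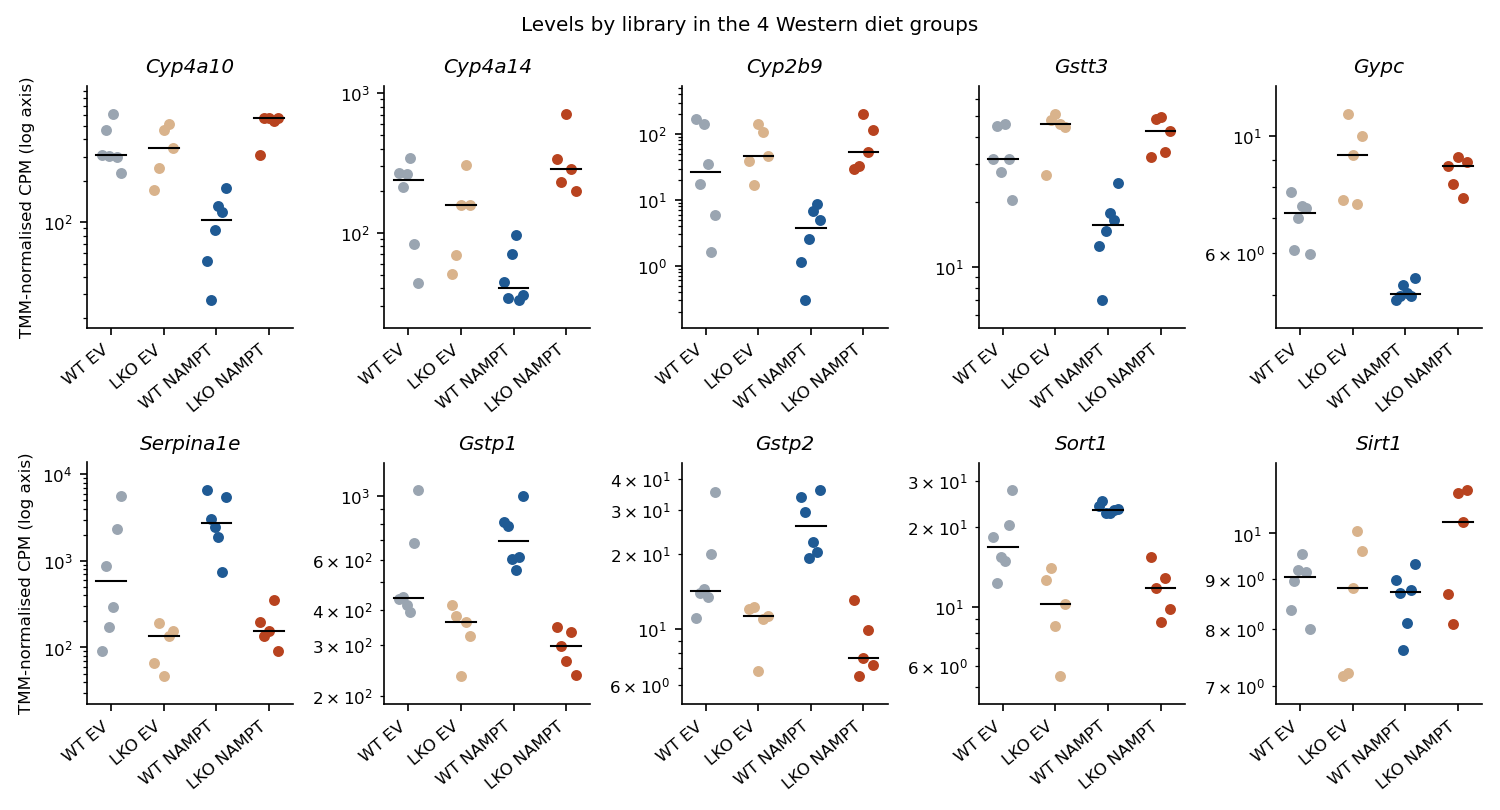
CPM on a log axis of 10 genes in each Western diet library, by group (WT EV, LKO EV, WT NAMPT, LKO NAMPT), with 1 point per library and a black line at the median. Cyp4a10 and Cyp4a14 lie lower and Serpina1e and Gstp1 higher in WT NAMPT than in LKO NAMPT with no overlap, and Sirt1 overlaps.

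Among genes of fatty acid oxidation every call was in the upward direction. Of the 36 genes listed as PPARα targets and fatty acid oxidation genes 35 were tested (Acot5 was not), 18 were called higher and 0 lower, beside 4.18% of all genes called higher. The log2 fold change was above 0 in 34 of the 35, with a median of 0.50, against -0.07 for the same genes in LKO EV compared with WT EV. In mitochondrial beta-oxidation, Hadh was at 204, 188, 311, 312, 349.8 and 367 CPM in WT NAMPT and 406, 457, 492, 423 and 479.7 CPM in LKO NAMPT without overlap (log2 fold change 0.59 ± 0.12 (SE), adjusted p = 0.0139). Hadhb, the trifunctional protein's beta subunit, was at 89.9 to 141 (median 105) and 141, 165, 207, 138 and 171 CPM and just overlapped (log2 fold change 0.59 ± 0.11 (SE), adjusted p = 0.0107). Decr1, which handles polyunsaturated chains, was at 88.8 to 168 (median 121) and 159, 201, 216, 168 and 187 CPM (log2 fold change 0.63 ± 0.11 (SE), adjusted p = 0.0107). Acadl, the long-chain acyl-CoA dehydrogenase, was at 119 to 169 (median 149) and 166, 214, 281, 187 and 212 CPM (log2 fold change 0.50 ± 0.10 (SE), adjusted p = 0.0139). The last 3 overlapped by 1 or more libraries. Acot1, a thioesterase that releases fatty acids from CoA, was at 15.3, 28.8, 20.6, 18.6, 18.8 and 20.9 and 25.9, 36.7, 36.2, 34.9 and 32.03 CPM with overlap (log2 fold change 0.78 ± 0.23 (SE), adjusted p = 0.0413), and shared 19.2% of its windows with other genes, mostly Acot2.

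Further members are named here after their values were seen. Ehhadh, the peroxisomal bifunctional enzyme, was at 239.6 to 373 (median 312) CPM in WT NAMPT and 529, 499, 587, 508 and 482 CPM in LKO NAMPT (log2 fold change 0.65 ± 0.15 (SE), adjusted p = 0.0196), Acadm, the medium-chain dehydrogenase, at 193 to 273 (median 251) and 334, 334, 442, 378 and 350.2 CPM (log2 fold change 0.52 ± 0.11 (SE), adjusted p = 0.0164), Crat, the carnitine acetyltransferase, at 40.5 to 66.1 (median 56.1) and 77.5, 90.4, 102, 89.9 and 85.9 CPM (log2 fold change 0.57 ± 0.17 (SE), adjusted p = 0.0425) and Eci1 at 43.9 to 106 (median 88.6) and 107, 112, 131, 137 and 119 CPM (log2 fold change 0.54 ± 0.16 (SE), adjusted p = 0.0407). None of these 4 overlapped between the groups. Acsl1, which activates fatty acids, was called with overlap at a log2 fold change of 0.76. Cpt1a, which controls fatty acid entry into mitochondria, and Vnn1 did not overlap but missed the threshold, with log2 fold changes of 0.34 ± 0.13 (SE, adjusted p = 0.0949) and 1.20 ± 0.39 (SE, adjusted p = 0.0542).

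**Figure D4:**
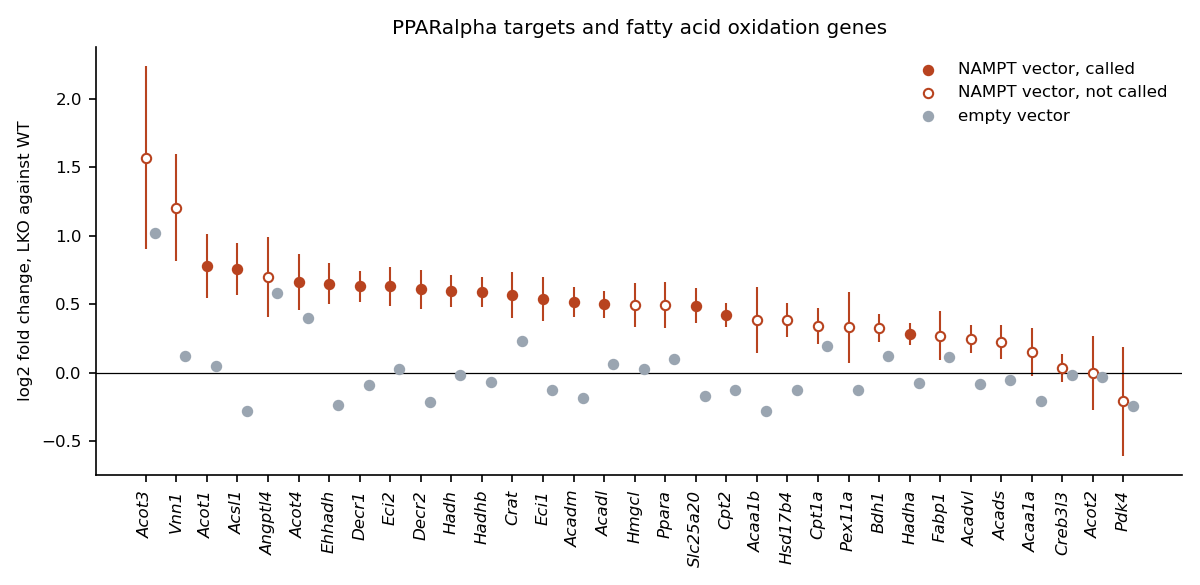
Log2 fold change with its SE of 33 of the 35 tested PPARα and fatty acid oxidation genes in LKO NAMPT against WT NAMPT, filled where called, and in LKO EV against WT EV in grey. Under NAMPT 32 of the 33 points lie above 0. Over all 35 genes the median is 0.50 under NAMPT and -0.07 under EV.

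The count of 18 depended on the libraries and the test. It was 0 without LKO NAMPT 2 or LKO NAMPT 5, 4 without WT NAMPT 3, 7 without WT NAMPT 2 and 10 without LKO NAMPT 3, 6 by the edgeR quasi-likelihood test and 11 without the 3 libraries of lowest quality weight (WT NAMPT 2, WT NAMPT 6 and LKO NAMPT 3). The list's median log2 fold change stayed between 0.42 and 0.59 over the 11 leave-one-out fits. The mean level of the list relative to the Western diet libraries was -0.90, -0.76, -0.21, -0.26, -0.07 and -0.10 on the log2 scale in WT NAMPT 1 to 6, and 0.08, 0.23, 0.42, 0.21 and 0.13 in LKO NAMPT 1 to 5. WT NAMPT 1 and 2 were the low libraries and WT NAMPT 5 and 6 lay near LKO NAMPT 1. In the EV groups it ran from -0.42 to 0.34 in WT and from -0.10 to 0.28 in LKO.

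Genes that handle foreign compounds were called in the upward direction only in part of their list. Of the 20 targets of CAR and PXR, the nuclear receptors for foreign compounds, 5 were called higher and 0 lower, beside 4.18% of all genes called higher. Their median log2 fold change was 0.52 against -0.02 under EV. It was 0.29 without LKO NAMPT 2 and 0.23 with 2 surrogate variables, which are sources of variation estimated from the counts, added to the fit. Cyp2b9, a cytochrome P450 that is higher in female liver, was at 1.15, 0.307, 2.57, 6.899, 8.76 and 5.01 CPM in WT NAMPT and 29.1, 33.1, 202, 52.8 and 116 CPM in LKO NAMPT, without overlap and with a wide spread in LKO (log2 fold change 4.07 ± 1.21 (SE), adjusted p = 0.0414). In the EV groups it ran from 1.61 to 169.5 (median 26.4) CPM in WT and from 16.8 to 142 (median 46.8) CPM in LKO, so low values were also found under EV. Cyp2c37 was at 35.2 to 369 (median 101) and 51.3, 405, 349, 253 and 550.3 CPM (log2 fold change 1.63 ± 0.45 (SE), adjusted p = 0.0329), and Nr1i3, the gene of CAR itself, at 10.5 to 53.4 (median 25.3) and 34.3, 53.01, 61.8, 45.1 and 47.5 CPM (log2 fold change 0.85 ± 0.24 (SE), adjusted p = 0.0336). Both overlapped, as did Cyp2a5 (log2 fold change 0.79 ± 0.21 (SE), adjusted p = 0.0304) and Cyp2c29 (1.01, named after its values were seen). Cyp2c37 shared 30.1% of its windows with other genes, 21.1% with Cyp2c50 of the same list. Cyp2b10, the usual CAR target, named after its values were seen, was at 0.637 to 1.34 (median 0.925) CPM in WT NAMPT and 1.26, 0.263, 5.19, 0.846 and 0.611 CPM in LKO NAMPT (adjusted p = 0.456). The CAR and PXR count was 0 without WT NAMPT 2, WT NAMPT 3, LKO NAMPT 2, LKO NAMPT 3 or LKO NAMPT 5, and 1 by the edgeR quasi-likelihood test, by DESeq2 and without WT NAMPT 1 or WT NAMPT 4. It was 8 without WT NAMPT 6 or LKO NAMPT 1 and 9 without WT NAMPT 5. Outside the list, Cyp2c38 was at 12.7 to 41.96 (median 25.9) and 59.7, 85.6, 163, 72.3 and 94.2 CPM (log2 fold change 1.44 ± 0.39 (SE), adjusted p = 0.0304) and Cyp2c39 at 0.778 to 3.43 (median 2.73) and 4.82, 5.85, 8.81, 4.44 and 6.65 CPM (log2 fold change 1.27 ± 0.30 (SE), adjusted p = 0.0225), neither with overlap. Ugt1a5, a glucuronosyltransferase that shares 64.0% of its windows with other Ugt1a transcripts, was at 5.75 to 29.3 (median 19.2) and 42.7, 79.1, 73.1, 43.9 and 46.7 CPM without overlap (2.83-fold, adjusted p = 0.0185).

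Glutathione S-transferases, which attach glutathione to reactive compounds, held calls in both directions. Of 22 tested, 5 were called higher, 2 lower and 15 in neither direction, beside 4.18% and 3.78% of all genes called higher and lower. Gstt3 (ENSMUSG00000001665, chr10:75774115-75781414, minus strand) was at 12.5, 7.05, 14.6, 17.8, 16.6 and 24.4 CPM in WT NAMPT and 32.5, 48.8, 49.6, 34.1 and 42.5 CPM in LKO NAMPT, without overlap (log2 fold change 1.48 ± 0.22 (SE), adjusted p = 0.00325). Gstt1 was at 123, 100.5, 154, 179, 192 and 203 CPM and 229, 255, 284, 250.1 and 237 CPM, also separated (log2 fold change 0.62 ± 0.12 (SE), adjusted p = 0.0141). Gstt3 spread over 20.5 to 45.96 (median 31.7) CPM in WT EV and 26.7 to 51.3 (median 46.1) CPM in LKO EV, so WT NAMPT again had the lowest median of the 4 groups. The other 3 members called higher were Gsta3 of the alpha class, Gstk1 of the kappa class and the microsomal Mgst1, named after their values were seen, at log2 fold changes of 0.61, 0.47 and 0.55. The members called lower were Gstp1 and Gstp2 of the pi class, whose remaining tested member, Gstp3, was not called (log2 fold change -0.18, adjusted p = 0.3997). Gstp1 (ENSMUSG00000060803, chr19:4035407-4037921, minus strand) was at 814, 787, 604, 552, 610.3 and 998 CPM in WT NAMPT and 349, 298, 264, 334 and 236 CPM in LKO NAMPT (log2 fold change -1.12 ± 0.20 (SE), adjusted p = 0.0107). Gstp2 was at 33.9, 29.4, 19.2, 22.5, 20.4 and 36.04 CPM in WT NAMPT and 13.1, 6.48, 7.63, 9.94 and 7.19 CPM in LKO NAMPT (log2 fold change -1.54 ± 0.24 (SE), adjusted p = 0.00451). Neither overlapped, and WT EV held 392 to 1049 (median 439) CPM and LKO EV 234 to 417 (median 364) CPM of Gstp1, so the median was lower in LKO under both vectors, but the EV difference did not pass (log2 fold change -0.61, adjusted p = 0.525). Gstp1 and Gstp2 shared 33.7% and 54.3% of their windows, most of them with each other, so their counts are not independent. The list's 5 rises were 0 without LKO NAMPT 2, 1 without LKO NAMPT 5 and 2 without WT NAMPT 2, WT NAMPT 3 or LKO NAMPT 3.

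Serpina1e had the largest fall among the called, abundant genes without overlap (mean log2 CPM not under 0). It is 1 of 5 mouse paralogues of alpha-1-antitrypsin, the secreted inhibitor of neutrophil elastase, and is higher in male liver. Serpina1e (ENSMUSG00000072849, chr12:103946931-103958975, minus strand) was at 6543, 3077, 2467, 1875, 752 and 5506 CPM in WT NAMPT and 197, 137, 154, 356 and 92.2 CPM in LKO NAMPT, with no overlap (log2 fold change -3.76 ± 0.77 (SE), adjusted p = 0.0145). WT EV livers ran from 90.6 to 5703 (median 584) CPM and LKO EV livers from 46.5 to 193 (median 134) CPM, and the EV difference was -2.50 on the log2 scale with an adjusted p of 0.322. No LKO library of either vector exceeded 356 CPM, and the WT EV libraries spanned both levels. It shared 34.6% of its windows with its paralogues, of which the other 4 were not called. Of 26 tested male-biased liver genes 3 were called lower, which were Serpina1e, Gstp1 and Gstp2, and 0 higher, beside 3.78% of all genes called lower. The median over the 26 was 0.10 against -0.52 under EV, and it turned to -0.07 with library size alone, -0.22 without LKO NAMPT 2, -0.12 without WT NAMPT 3, -0.05 without WT NAMPT 2, -0.01 without WT NAMPT 4 and -0.79 with 2 surrogate variables. Of 19 tested female-biased genes 2 were called higher and 0 lower, which were Cyp2b9 and Cyp4a14, beside 4.18% of all genes called higher, with a median of 0.45 under NAMPT and 0.57 under EV. The NAMPT median was 0.22 without LKO NAMPT 1, 0.25 without WT NAMPT 5, 0.29 without WT NAMPT 6 and 0.11, with 0 genes called, without the 3 libraries of lowest weight. The 21 major urinary protein genes tested, also higher in males, had 0 calls by limma, 4 at an unadjusted p under 0.05, and a median of 1.26 against -1.40 under EV. That median ran from 0.78 without WT NAMPT 3 to 1.77 without LKO NAMPT 1, and turned to -0.84 with 2 surrogate variables. Mup3 was at 1431 to 12154 (median 2518) and 1431, 6049, 6332, 4593 and 6436 CPM (adjusted p = 0.0949). None of the 18 growth hormone, IGF1 and STAT5 genes was called by limma (4 at an unadjusted p under 0.05), and Igf1 itself was at 431 to 699 (median 578) and 531, 587, 721, 489 and 543 CPM. Selenbp2 and C6, named after their values were seen, did not overlap but missed the threshold (log2 fold change -1.89 ± 0.64 (SE), adjusted p = 0.0612 and log2 fold change -0.70 ± 0.23 (SE), adjusted p = 0.0555).

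Sort1, the sorting receptor that carries lipoproteins and lysosomal proteins, was lower in LKO NAMPT. Sort1 (ENSMUSG00000068747, chr3:108284091-108361511, plus strand) was at 24.02, 25.04, 22.7, 22.7, 23.2 and 23.4 CPM in WT NAMPT and 15.5, 11.8, 8.76, 12.9 and 9.805 CPM in LKO NAMPT (log2 fold change -0.99 ± 0.18 (SE), adjusted p = 0.0123). The WT NAMPT libraries lay within a narrow band and did not overlap LKO NAMPT. WT EV held 12.4 to 27.6 (median 16.9) CPM and LKO EV 5.49 to 14.1 (median 10.3) CPM, a log2 fold change of -0.75 that did not pass (adjusted p = 0.297). Gypc, the glycophorin of red cells, also found in other tissues, was at 4.89, 4.98, 5.21, 5.03, 4.96 and 5.39 CPM in WT NAMPT and 8.76, 8.12, 9.11, 7.61 and 8.92 CPM in LKO NAMPT, without overlap (log2 fold change 0.72 ± 0.12 (SE), adjusted p = 0.009299), and at 5.96 to 7.85 (median 7.15) and 7.42 to 11.03 (median 9.22) CPM in WT EV and LKO EV. The 4 erythroid markers stood at 323 to 1295 (median 589) CPM in sum in WT NAMPT and 1305, 1389, 584, 1228 and 983 CPM in LKO NAMPT, and 1 of them, Hbb-bs, was called higher (log2 fold change 1.35 ± 0.34 (SE), adjusted p = 0.0228), beside 4.18% of all genes, while the edgeR quasi-likelihood test and DESeq2 called 0 of them. In the EV groups the sum was 443 to 1029 (median 677) CPM in WT and 743 to 1837 (median 923) CPM in LKO, and the median log2 fold change of the 4 was 0.73 under EV and 0.91 under NAMPT (0.44 without WT NAMPT 3). Hbb-bs shared 53.2% of its windows with Hbb-bt. Whether red cell RNA had a part in Gypc was not tested.

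Among the other separated rises, Acss3, a mitochondrial short-chain acyl-CoA synthetase, was at 8.402, 6.74, 12.2, 14.1, 19.4 and 19.4 CPM in WT NAMPT and 19.5, 35.5, 37.7, 25.6 and 31.3 CPM in LKO NAMPT (log2 fold change 1.23 ± 0.21 (SE), adjusted p = 0.009299). Pdk1, a kinase that switches off pyruvate dehydrogenase, was at 26.4 to 108 (median 72.3) and 111, 142, 163, 108 and 133 CPM (log2 fold change 0.86 ± 0.20 (SE), adjusted p = 0.0196). Gbe1, the glycogen branching enzyme, was at 73.9 to 156 (median 114) and 166, 198, 299, 159 and 210.2 CPM (log2 fold change 0.76 ± 0.18 (SE), adjusted p = 0.0226). These 3 separated the groups, Pdk1 and Acss3 by less than 1 CPM at the closest pair of libraries. The transcript 4930480G23Rik was at 1.27 to 3.12 (median 2.13) and 3.42, 3.75, 9.64, 4.82 and 4.27 CPM (log2 fold change 0.96 ± 0.27 (SE), adjusted p = 0.0332). Ide, the insulin-degrading enzyme, was at 98.6, 78.2, 88.96, 84.9, 96.6 and 169.5 CPM in WT NAMPT and 168, 181, 152, 209 and 181 CPM in LKO NAMPT, where only WT NAMPT 6 reached the LKO range (log2 fold change 0.98 ± 0.18 (SE), adjusted p = 0.0123).

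Among the other separated falls, Cdh1, E-cadherin of epithelial junctions, was at 53.8, 77.8, 31.2, 27.2, 26.8 and 31.03 CPM in WT NAMPT and 25.9, 14.3, 5.97, 11.3 and 10.6 CPM in LKO NAMPT (log2 fold change -1.35 ± 0.29 (SE), adjusted p = 0.0148). Enho, which encodes the hepatokine adropin, was at 0.862 to 2.597 (median 1.33) and 0.489, 0.362, 0.349, 0.423 and 0.712 CPM (log2 fold change -1.48 ± 0.43 (SE), adjusted p = 0.03903). Ripk3, the kinase of necroptosis, was at 1.62 to 4.05 (median 2.86) and 1.54, 1.61, 0.741, 1.44 and 1.29 CPM (log2 fold change -0.92 ± 0.25 (SE), adjusted p = 0.0324). Enho and Ripk3 were scarce, as were the remaining ones, whose libraries were all under 4 CPM. Tmem163, Dlgap1, Homer3, Gm6733 and Osbpl7 had log2 fold changes of -1.14, -1.12, -1.02, -0.91 and -0.88, and each was called in 3 to 9 of the 11 leave-one-out fits. Abhd1 was called (log2 fold change -2.41 ± 0.48 (SE), adjusted p = 0.0145) on counts of 27, 23, 20, 15, 12 and 4 in WT NAMPT and of 2, 3, 3, 2 and 3 in LKO NAMPT, and its exons overlap Preb by 1575 bases, so its value is uncertain.

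Lipid synthesis gave no call. Of 28 genes of de novo lipogenesis and desaturation 0 were called by limma, 5 were at an unadjusted p under 0.05, and the edgeR quasi-likelihood test and DESeq2 called 0 and 1. The log2 fold change was above 0 in 25 of the 28, with a median of 0.31 against 0.10 under EV. Scd1, the delta-9 desaturase, was at 22939 to 50740.5 (median 40275) CPM in WT NAMPT and 59082, 61760.1, 78363, 54804 and 52971 CPM in LKO NAMPT, without overlap, but did not pass (log2 fold change 0.49 ± 0.24 (SE), adjusted p = 0.177). Elovl6 was at 51.9 to 250.05 (median 149.8) and 270.5, 321, 384, 185 and 291 CPM (log2 fold change 0.82 ± 0.29 (SE), adjusted p = 0.0681). Fasn, the fatty acid synthase, was at 470.5 to 3469 (median 1337) and 2022, 2053, 2713, 1947 and 1794 CPM (log2 fold change 0.29 ± 0.36 (SE), adjusted p = 0.606). Pklr, Acaca and Gpam overlapped too, with adjusted p-values of 0.264, 0.445 and 0.323.

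Lipid storage and bile acid genes held a few calls. Of 19 lipid droplet genes 4 were called higher and 0 lower, beside 4.18% of all genes called higher. The edgeR quasi-likelihood test, DESeq2 and the fit without the 3 libraries of lowest weight each called 0 of them. Mgll, the monoacylglycerol lipase, was at 97.4 to 266 (median 196) and 192, 309.8, 305, 318 and 331 CPM (log2 fold change 0.66 ± 0.18 (SE), adjusted p = 0.0305), and the droplet proteins Fitm1 and Fitm2 and the acyltransferase Mogat1 had log2 fold changes of 1.19, 0.53 and 1.78. Of 28 tested bile acid genes 4 were called higher and 0 lower, while the edgeR quasi-likelihood test called 0 of the 28 and DESeq2 1. Cyp8b1, the sterol 12-alpha-hydroxylase, was at 77.03, 39.9, 96.7, 107, 299 and 329 CPM in WT NAMPT and 156, 337, 324, 331 and 401 CPM in LKO NAMPT with overlap (log2 fold change 1.42 ± 0.30 (SE), adjusted p = 0.0148), Akr1d1 at 37.8 to 125 (median 85.97) and 90.5, 162, 158, 117 and 203 CPM (log2 fold change 0.95 ± 0.21 (SE), adjusted p = 0.0188), and the uptake carriers Slco1b2 and Slc10a1 at log2 fold changes of 0.74 and 0.87. Of 21 apolipoprotein and lipoprotein genes Apoa2 and Mttp were called higher (0.57 and 0.45), and of 26 cholesterol synthesis genes only Tm7sf2 (0.59). These shares of 9.52% and 3.85% stood beside the same 4.18% of all genes called higher. The edgeR quasi-likelihood test called 0 in each of these lists, and DESeq2 0 of the 21 and 1 of the 26. Every gene of this paragraph overlapped between the groups and was called in at most 8 of the 11 leave-one-out fits.

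Pericentral genes, set by Wnt signals around the central vein, gave 4 calls higher and 0 lower of 17 tested, beside 4.18% of all genes called higher, with a median of 0.41, or 0.15 with 2 surrogate variables. The edgeR quasi-likelihood test and DESeq2 each called 0 of them. Oat was at 284 to 796 (median 539) and 485, 1472, 646, 907 and 1133 CPM (log2 fold change 0.91 ± 0.21 (SE), adjusted p = 0.0192), and Glul, the glutamine synthetase, at 411 to 1295 (median 763) and 795, 1557, 1205, 1344 and 1373 CPM (log2 fold change 0.79 ± 0.23 (SE), adjusted p = 0.03903). Slc1a2 and Cyp2e1 had log2 fold changes of 0.78 and 0.92. In retinoid metabolism 4 of 26 tested were called higher and 1 lower (19.2%, beside 7.96% of all genes). The edgeR quasi-likelihood test called 0 of the 26 and DESeq2 3 higher. By limma, Aldh1a1 (0.83), Retsat (0.76) and Dhrs3 (0.38) were higher with Rdh16 (0.68, named after its value was seen). In NAD metabolism 2 of 23 were called higher, Nadk2, the mitochondrial NAD kinase (0.45), and Kmo (0.41), a share of 8.696% beside 4.18% of all genes called higher. The edgeR quasi-likelihood test called 0 of the 23 and DESeq2 2. Of the 7 sirtuins 0 were called by limma and 0 were at an unadjusted p under 0.05. Sirt3 was at 28.04 to 60.5 (median 47.2) and 44.8, 48.99, 42.7, 54.8 and 51.9 CPM and Sirt2 at 43.4 to 52.3 (median 46.5) and 53.2, 51.4, 58.3, 48.8 and 49.7 CPM.

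A few stress and signalling genes were lower in LKO NAMPT. Of 23 genes of ATF4 and the integrated stress response 3 were called lower and 0 higher, beside 3.78% of all genes called lower. The edgeR quasi-likelihood test called 0 of them and DESeq2 5 lower. The median was -0.46, or -0.17 with 2 surrogate variables. The members called were Ddit3, the stress factor CHOP, at 3.88 to 14.6 (median 6.65) and 3.59, 4.21, 3.66, 4.78 and 3.800 CPM (log2 fold change -0.83 ± 0.23 (SE), adjusted p = 0.0337), Aldh18a1 (-1.07) and Mthfd2 (-1.34). In insulin and PI3K-AKT signalling 2 of 39 were called higher and 5 lower (17.9%, beside 7.96% of all genes), with 0 called by the edgeR quasi-likelihood test and 2 lower by DESeq2. The lower ones included Pik3cg (-0.92), Pik3r5 (-1.53) and Pik3cd (-1.01), the PI3-kinase subunits known from white blood cells. Named after their values were seen, the lower ones also included the leukocyte phosphatase Inpp5d (-0.72), and the higher ones the insulin receptor Insr (0.27). Of 23 hepatokines 2 were called lower and 1 higher (13.04%, beside 7.96% of all genes). The edgeR quasi-likelihood test called 0 of the hepatokines, and DESeq2 1 higher and 1 lower. Besides Enho, Hamp, the iron hormone hepcidin, was at 699, 670.3, 485, 327, 249.6 and 283 CPM in WT NAMPT and 28.97, 45.5, 291, 166 and 172 CPM in LKO NAMPT with overlap (log2 fold change -2.12 ± 0.49 (SE), adjusted p = 0.0199), and Selenop was higher (0.42). Of 19 genes of glucose and glycogen metabolism 2 were called (10.5%, beside 7.96% of all genes): Ugp2 was higher (0.67) and Tat, the tyrosine aminotransferase, lower (-0.74). The edgeR quasi-likelihood test and DESeq2 each called 0 of these 19. Of 22 clock genes 2 were called higher (9.09%), Hlf (0.60) among them, and of 21 chaperone genes 1, Sel1l (0.32), a share of 4.76% beside 4.18% of all genes called higher. In both lists the edgeR quasi-likelihood test, DESeq2 and the fit without the 3 libraries of lowest weight called 0.

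The calls among NF-kB, Fc receptor and matrix genes were all in the downward direction. Of 24 tested NF-kB pathway genes 8 were called lower and 0 higher, beside 3.78% of all genes called lower, and all 24 had a log2 fold change below 0 (median -0.49, against 0.01 under EV). Relb, a subunit of NF-kB, was at 11.7, 13.96, 8.08, 7.83, 5.85 and 2.75 CPM in WT NAMPT and 6.39, 3.85, 2.57, 4.06 and 4.65 CPM in LKO NAMPT (log2 fold change -0.91 ± 0.23 (SE), adjusted p = 0.0251). Il1b, the interleukin of macrophages, was at 1.02 to 7.85 (median 5.01) and 3.91, 1.58, 1.701, 1.44 and 2.31 CPM (log2 fold change -1.22 ± 0.33 (SE), adjusted p = 0.0292). Both overlapped, as did Tnfaip2 (-0.62) and Nfkbiz (-0.52). Against the same share, of 18 tested Fc and paired immunoglobulin-like receptor genes 4 were called lower (median -0.68), among them Pirb (-0.92), Tyrobp (-0.76) and Syk (-0.75). Pirb shared 34.0% of its windows with other genes. Of 31 matrix genes 4 were called lower, Adamtsl2, Lum (-0.90), Tgfb1 (-0.68) and Col6a1 (-0.83), with a median of -0.64 against 0.28 under EV. Single calls fell among the chemokines (Cxcl16, -0.57, of 25) and the interferon-stimulated genes (Oas1g, -1.42, of 29), shares of 4.0% and 3.45% close to that of all genes. Among 27 acute-phase genes Hamp, Itih3 (-0.61) and Saa3 (-1.86) were lower and Crp (0.45) higher (14.8%, beside 7.96% of all genes called), with 0 called by the edgeR quasi-likelihood test and 1 by DESeq2. Their median of -0.11 was 0.02 without LKO NAMPT 2 and 0.07 with 2 surrogate variables. The 8 MHC class II genes had 0 calls by limma, 8 at an unadjusted p under 0.05, and a median of -0.75, with Cd74 at 40.3 to 368 (median 208) and 257, 88.7, 66.8, 144 and 101 CPM. The 29 cell cycle, 33 complement and 25 lysosome genes had 0 calls by limma, with 3, 10 and 6 at an unadjusted p under 0.05 and medians of -0.26, -0.08 and -0.09. With 2 surrogate variables the medians of these lists lay nearer 0 or turned, at -0.15 for NF-kB, -0.14 for Fc receptor, 0.01 for matrix, 0.10 for MHC class II, 0.07 for cell cycle, -0.02 for complement and 0.02 for lysosome genes. The cell cycle median also ran from -0.58 without WT NAMPT 4 to -0.05 without WT NAMPT 2. In each list with 0 limma calls the edgeR quasi-likelihood test also called 0, and DESeq2 called 1 gene of lipogenesis and 2 of complement.

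These lists moved with markers of some other cell types, and the part of those cells in them was not tested. The 8 markers of recruited and lipid-associated macrophages had 0 calls by limma, 5 at an unadjusted p under 0.05, a median of -1.01 and a log2 fold change below 0 in 8 of 8. The median ran from -1.33 to -0.83 on leaving out 1 library and was -0.02 with 2 surrogate variables. Their summed level was 226, 329, 166, 131, 65.6 and 7.16 CPM in WT NAMPT 1 to 6 and 165, 39.9, 38.5, 31.3 and 59.3 CPM in LKO NAMPT 1 to 5. WT NAMPT 1 to 4 and LKO NAMPT 1 were the high libraries, above 10.5 to 74.8 (median 28.7) CPM in WT EV and 13.8 to 65.3 (median 38.6) CPM in LKO EV, and WT NAMPT 6 was the lowest of all. Gpnmb, a marker of that list, was at 55.7, 124, 67.3, 40.1, 18.01 and 0.0539 CPM in WT NAMPT and 57.2, 5.52, 2.31, 3.26 and 8.24 CPM in LKO NAMPT. The other markers were summed the same way: Kupffer cells (7 genes, of which 1, Marco, was called lower, -2.14) ran from 222 to 563 (median 439) CPM in WT NAMPT and 244 to 426 (median 291) CPM in LKO NAMPT, and neutrophils (7 of 10 tested, of which 1, Csf3r, was called lower, -1.31) from 3.66 to 27.3 (median 18.8) and 4.67 to 21.2 (median 5.903) CPM. T and NK cells had 1 of 6 called lower, Lck (-1.65), stellate cells 1 of 6, Pdgfrb (-0.61), and cholangiocytes 1 of 4, Sox9 (-1.45), beside 3.78% of all genes called lower. In each of these 5 lists the edgeR quasi-likelihood test and DESeq2 called 0. Their medians were -0.31 for Kupffer cells, -1.16 for neutrophils, -0.61 for T and NK cells, -0.38 for stellate cells and -0.88 for cholangiocytes, and with 2 surrogate variables -0.25, -0.02, 0.09, -0.11 and -0.40. On leaving out 1 library, the T and NK cell median ran from -0.85 to -0.27 and the cholangiocyte median from -1.06 to -0.45. Hepatocyte markers had 0 of 8 called by limma, 0 at an unadjusted p under 0.05, and a median of -0.04, at 51153 to 69354 (median 55604) and 52623 to 66359.6 (median 63542) CPM in sum. Endothelial cells had 0 of 7 and B cells 0 of 4 tested called by limma, with 1 and 1 at an unadjusted p under 0.05, each higher in LKO. Their medians were 0.10 and 0.18, so these markers did not fall. The first principal component over the Western diet libraries, with 35.9% of the variance, placed WT NAMPT 1 to 4 at 24.9 to 64.7, LKO NAMPT 1 within that range, WT NAMPT 5 at 0.7, WT NAMPT 6 at -37.5 and the other LKO NAMPT libraries at -20.4 to -1.3.

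**Figure D5:**
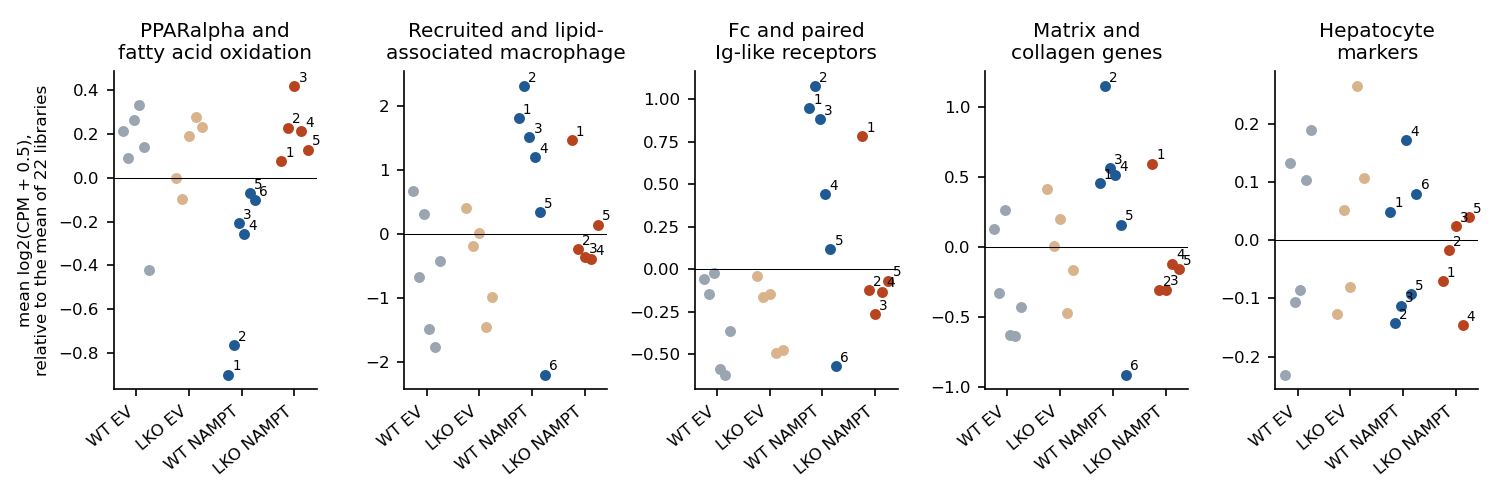
Mean log2(CPM + 0.5) of 5 gene lists relative to the Western diet libraries (vertical axis), 1 point per library by group, with the NAMPT libraries numbered. The PPARα list runs from -0.90 in WT NAMPT 1 to 0.42 in LKO NAMPT 3, and in the inflammatory lists WT NAMPT 6 lies on the LKO side and LKO NAMPT 1 on the WT side.

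The calls of the inflammatory lists rested on single libraries. The NF-kB count was 0 without WT NAMPT 2, WT NAMPT 3, LKO NAMPT 2, LKO NAMPT 3 or LKO NAMPT 5, 4 without WT NAMPT 1 or WT NAMPT 4, 14 without WT NAMPT 5 or WT NAMPT 6, and 0 by the edgeR quasi-likelihood test and by DESeq2. The Fc receptor count was 0 without WT NAMPT 2, WT NAMPT 3, LKO NAMPT 2 or LKO NAMPT 5 and by both other tools, 1 without LKO NAMPT 3, 2 without WT NAMPT 1, and 12 or 13 without LKO NAMPT 1, WT NAMPT 5 or WT NAMPT 6. The matrix count was 0 without LKO NAMPT 2 or LKO NAMPT 5, 1 without WT NAMPT 2, WT NAMPT 3 or LKO NAMPT 3, 2 without WT NAMPT 1, and 11, 20 and 16 without WT NAMPT 5, WT NAMPT 6 and LKO NAMPT 1, with 0 by the edgeR quasi-likelihood test and 1 by DESeq2. Without the 3 libraries of lowest quality weight the 3 counts were 6, 4 and 6. Over the 11 leave-one-out fits the median log2 fold change ran from -0.59 to -0.37 for NF-kB genes. It ran from -0.88 to -0.5 for Fc receptor genes and from -0.79 to -0.49 for matrix genes.

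The same genotype contrast under empty vector called 1 gene (0.00711%), with 891 at an unadjusted p under 0.05. It was Mmp7, a matrix protease, scarce in every library and named after its values were seen, with a log2 fold change of 3.46 under EV. Under NAMPT Mmp7 was at 0, 0, 0.0668, 0, 0.447 and 0 CPM in WT and 0.349, 0.263, 0.0872, 0.0846 and 0.305 CPM in LKO. Of the 1120 genes called under NAMPT, 446 (39.8%) had the same sign under EV, beside 44.5% of all genes, and their median size there was 0.09. The interaction, which tests whether the genotype difference itself differed between the vectors, called 1 gene (0.00711%), with 2986 at an unadjusted p under 0.05. That gene was Adamtsl2, a secreted protein of the extracellular matrix. Adamtsl2 (ENSMUSG00000036040, chr2:27079379-27108981, plus strand) was at 4.81, 8.63, 6.58, 7.06, 5.37 and 3.77 CPM in WT NAMPT and 5.51, 2.400, 3.97, 2.58 and 2.99 CPM in LKO NAMPT, with overlap (log2 fold change -1.12 ± 0.18 (SE), adjusted p = 0.006695). It was at 4.39, 3.97, 3.81, 3.44, 3.801 and 3.51 CPM in WT EV and 5.72, 7.62, 6.76, 5.95 and 6.801 CPM in LKO EV, where LKO lay above WT without overlap but the contrast did not pass (log2 fold change 0.78, adjusted p = 0.177). The interaction was -1.90 ± 0.24 (SE, adjusted p = 0.000661 by limma) and was called in each of the 22 fits that left out 1 library. It was not called by the edgeR quasi-likelihood test (-1.58, adjusted p = 0.218, with 0 genes called and 1545 at an unadjusted p under 0.05), without sample quality weights (-1.64, adjusted p = 0.133 by limma) or with 2 surrogate variables (-1.56, adjusted p = 0.0549 by limma). DESeq2 gave it -1.59 and no adjusted p, and the 19 genes that DESeq2 called were all in the other direction.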

How the data were processed

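Liver RNA was captured with oligo-dT. The submitters' processing notes name bcl2fastq, STAR 2.5.1a and featureCounts 1.4.6-p5 (Subread), and the authors deposited gene counts beside CPM and RPKM values that they had computed from those counts. The deposited CPM and RPKM values served only to check the counts. No strand setting is given in the sources used here, so overlapping genes were treated as uncertain.

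Counts of all 25 libraries were fitted in limma 3.58.1 (voom with sample quality weights) with TMM size factors from edgeR 4.0.16 and 1 mean per group, which left 20 residual degrees of freedom. Genes with more than 1 CPM in at least 2 libraries were kept, 4 ribosomal RNA genes were left out, and p-values were adjusted by Benjamini-Hochberg over the 14065 genes. A gene was called at an adjusted p of at most 0.05. Levels are TMM-normalised CPM. Each library is 1 mouse, so n counts animals. No 2 libraries of these groups agreed within sampling noise. Permutation tests used log2(CPM + 0.5). RefSeq promoter tables supplied the sequences. The alternatives changed the test (edgeR quasi-likelihood, edgeR exact, DESeq2 1.42.0), the weights, the size factors and filter, and the libraries or covariates in the fit (sva 3.50.0).

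Named genes were the 12 largest rises and 12 largest falls of called genes whose mean log2 CPM was not under 0 and whose groups did not overlap, genes called also in the fit on only the 11 libraries compared, up to 4 called members per list (up to 2 where a list had no call), and Sirt1, Nampt, Fgf21, Pklr, Acaca, Fasn, Elovl6, Gpam and Scd1. Other genes were chosen after their values were seen. A few called genes are not reported here by name, and list counts include them. The comparison, the 44 gene lists (776 of 812 members tested) and the naming rule were chosen with earlier results of these data known, so a list's count is not independent evidence of its direction. On simulated counts for this comparison the fit recovered 175 of 200 genes changed 2-fold, with 6 false calls among 14065 genes. The changed genes were drawn from abundant ones, and no simulated library carried a shift shared by many genes. These figures therefore do not give the power or the false calls for the real libraries.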

Additional observations from a re-analysis of the deposited data

Results flagged for a closer look

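A library was marked where its distance to the nearest other library of its group exceeded Dixon's limit relative to the group's range. This held in 19 of 276 groups of named genes examined (6.88%), where chance gives about 1 in 20. LKO NAMPT 1 stood apart in 12 of them. It was low among the LKO NAMPT libraries in Cyp4a10 (308 CPM), Nadk2 (126.7 CPM), Mup3 (1431 CPM), Cyp8b1 (155.6 CPM), Mgll (192 CPM), Apoa2 (4535 CPM), Aldh1a1 (672 CPM) and Apoa1 (4979 CPM). It was high in Pik3r5 (3.14 CPM), Pirb (13.02 CPM), Tyrobp (33.9 CPM) and Col6a1 (19.8 CPM). WT NAMPT 6 was high among the WT NAMPT libraries in Ide (169.5 CPM) and Selenbp2 (688 CPM), and low in Gpnmb (0.0539 CPM) and Mmp12 (0.108 CPM). WT NAMPT 5 was low in Dlgap1 (2.05 CPM) and high in Mmp7 (0.447 CPM), and WT NAMPT 2 was low in Ugt1a5 (5.75 CPM). Without LKO NAMPT 1 the comparison called 2258 genes, and without WT NAMPT 6 it called 2287, against 1120 with both.

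Adamtsl2 was the gene whose genotype difference differed between the vectors by the interaction test (log2 -1.90, adjusted p = 0.000661 by limma). The call was lost with the edgeR quasi-likelihood test (-1.58, adjusted p = 0.218), without sample quality weights (-1.64, adjusted p = 0.133) and with 2 surrogate variables (-1.56, adjusted p = 0.0549), and DESeq2 gave the gene no adjusted p (log2 -1.59) while its 19 interaction calls were all positive. The labels hold nothing that sets these libraries apart, and what made them differ was not tested.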

How the results depend on the processing

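The count of 1120 called genes was 45 with the edgeR quasi-likelihood test, 173 with the edgeR exact test, 294 with DESeq2, 38 without sample quality weights, 120 without the filter on low counts, 12 in the fit on only the libraries compared, 22 with 2 surrogate variables and 477 without the 3 libraries of lowest weight, an alternative chosen after seeing the data. The replicate block gave 412. Leaving out 1 library at a time gave 0 to 2287. Upper-quartile size factors gave 1058 (32.6% higher, against 52.5%) and library size alone 840 (24.3% higher), with all genes shifted by a median of -0.064 and -0.119 (log2). The EV contrast, with 1 call, gave 0 with the quasi-likelihood test (498 at an unadjusted p under 0.05) and the mean CPM filter, 10 with the exact test, 11 with DESeq2, 5 with only the libraries compared, 2 with the 22 Western diet libraries, 2 under the replicate block, 15 with surrogate variables and 0 to 5 leaving out 1 library. The interaction, with 1 call, gave 0 with the quasi-likelihood test, without weights and with surrogate variables, 19 with DESeq2, 3 with library size alone, 4 without the filter, 66 with the replicate block and 1 to 676 leaving out 1 library. The listed genes called went from 101 to 14, 33 and 46 with the quasi-likelihood test, the exact test and DESeq2, 12 without weights, 19 without the filter, 8 with only the libraries compared, 8 with surrogate variables, 59 without the 3 libraries and 0 to 209 leaving out 1 library. The permutation difference ran from 0.13 to 0.24 for Sirt1, 0.20 to 0.50 for Nampt and -0.91 to -0.14 for Fgf21. Of the values of called named genes under the other alternatives, 623 stayed called and 674 did not, and none changed sign. These genes were called from the same libraries, so a kept sign adds little. Replicate numbers are shared by label only: the correlation of same-numbered deviations ran from -0.184 to 0.19 and no sample correlated best with its own number, so the block was not used above. The cause of these changes was not tested.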
